A study of Mus musculus with 12 samples.

Results

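RNA from 4 spontaneous liver tumors of mice lacking E2f7 and E2f8 in hepatocytes was compared with RNA from 4 livers of wild-type mice, which together make 8 of the 12 libraries of the series. The members were taken by their labels, with earlier results of these data known, and the comparison covered the 13882 genes, of 26301 counted, that passed a filter on low counts. The tumors carry the label E2f7/8 DKO (double knockout) and the genotype Alb-Cre-E2f7 E2f8 knockout: Cre recombinase under the albumin promoter deletes both genes in hepatocytes, while the other cell types of the liver keep them. The controls are labelled wild-type, and all mice of both groups were adult, ageing animals of an end-of-life study, in lines bred into the FVB strain. No tumor of wild-type mice and no non-tumor liver of DKO mice is part of the comparison, so the effect of the deletion and that of being a tumor cannot be told apart. The 4 remaining libraries, from tumors in which Rb1 was deleted as well, entered neither group and served only in the estimate of the spread between libraries.

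E2F7 and E2F8 are the atypical members of the E2F family of transcription factors. They bind the same promoter sequence as the activating E2Fs, without the pocket proteins RB, p107 and p130, and repress genes of DNA replication and of later cell cycle steps. In the liver they are known for their part in the polyploidy of hepatocytes, and cells without them escape repression of cell cycle genes. Genes of G2 and mitosis carry a different promoter element, the cell cycle genes homology region (CHR, TTTGAA), which is bound by the DREAM and B-MYB complexes.

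Levels are given in CPM, which are counts scaled to the same effective library size, and differences as log2 fold changes, tumors over control livers. A gene is written of as called, or as having risen or fallen, where edgeR's quasi-likelihood test gave an adjusted p under 0.05 (Benjamini-Hochberg over all genes tested). The libraries held 9165812 to 16424973 counts. Albumin took 6.57% to 10.1% of the counts of the control livers and 11.9% to 22.7% of those of the tumors. Pairs of control livers correlated at 0.950 to 0.975 in log2 CPM, pairs of tumors at 0.937 to 0.966 and a control liver with a tumor at 0.907 to 0.968. The Y-linked genes Ddx3y, Eif2s3y and Uty were expressed in all 8 libraries and Xist was at 0.460 CPM or less. The Y-linked Kdm5d was at 9.59 to 16.5 CPM in the control livers, at 8.46 and 10.3 CPM in tumors 3 and 4, and at 2.15 and 1.11 CPM in tumors 1 and 2.

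The deleted genes were looked at first. E2f7 (Entrez 52679, mm9 chromosome 10 from 110182495 to 110224440) was at 1.11, 0.861, 0.542 and 0.732 CPM in control livers 1 to 4 and at 1.84, 1.58, 0.946 and 0.236 CPM in tumors 1 to 4. E2f8 (Entrez 108961, chromosome 7 from 56121799 to 56136966) was at 4.52, 8.97, 5.96 and 5.49 CPM in the control livers and at 7.59, 45.6, 11.4 and 17.3 CPM in the tumors, so that 3 of 4 tumors lay above every control liver. Neither mean was lower in the tumors, which goes against the labels at the level of a whole gene's count, and E2f8 did not pass the test (log2 fold change 1.72, standard error 0.581, adjusted p = 0.103). Counts summed over all exons of a gene cannot show a loss of single exons, and are therefore a weak check of the labels. The tumors are called tumors labelled DKO, or tumors 1 to 4, throughout. Rb1, which is not deleted in these mice, was at 8.29 ± 1.75 CPM in the control livers and 9.0 ± 1.52 CPM in the tumors (SD, n = 4 each).

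The tumors labelled DKO had more RNA of some fetal and tumor-associated genes and of some mitotic genes, and less of the major urinary proteins and of some subunits of the respiratory chain. Among the 13882 genes, 336 (2.42%) were called, 196 higher (1.41%) and 140 lower (1.01%) in the tumors. The median log2 fold change was 1.48 among those that rose and -1.06 among those that fell, against 0.02 over all genes tested. 64 genes rose and 37 fell by more than 4-fold. In 333 of the 336, the tumors and the control livers did not overlap, and the exceptions were Jun, Mrpl14 and Spon2. All 4 tumors lay above all 4 control livers in 8.87% of the genes tested and below them in 7.3%. The calls sat close to the threshold: the lowest adjusted p was 0.0204, 263 of the 336 lay above 0.04, and 159 further genes lay between 0.05 and 0.06. The p-values measure the spread between these libraries.

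**Figure D1:**
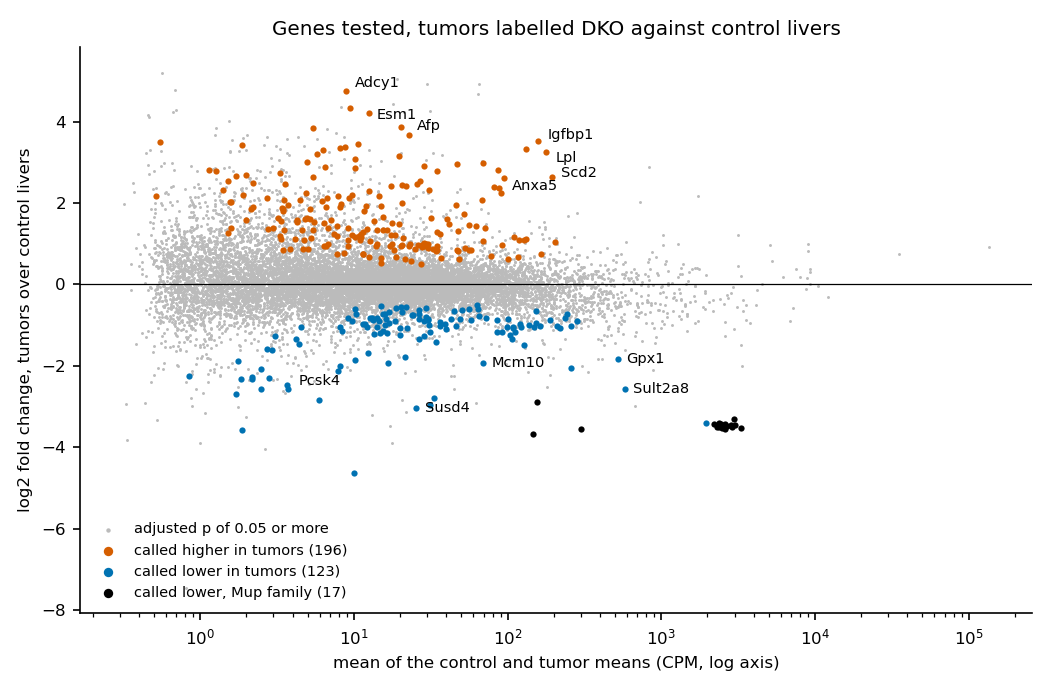
Mean level (CPM, log axis) against the log2 fold change, tumors labelled DKO over control livers, for the 13882 genes tested. Orange points are the 196 genes called higher, blue points 123 genes called lower and black points the 17 called Mup genes, which sit apart at high level and low log2 fold change.

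The number of calls depended on single libraries. Without control liver 1 it was 166, and without control livers 2, 3 and 4 it was 0, 0 and 5. Without tumors 1, 2 and 4 it was 5, 7 and 7, while without tumor 3 it was 409. In the edgeR fits with 0 calls, 2482 and 2560 genes still had an unadjusted p under 0.05. Of the 336 genes, 335 had an unadjusted p under 0.05 in all 8 fits that left out a library. The 336 were chosen by their p in these same libraries, so this was largely set in advance and is no separate support. A covariate of the log2 CPM of Xist minus the mean of 4 Y-linked genes, Kdm5d among them, left 6 calls. Xist had only 2 to 6 counts in each of the 8 libraries, so this covariate holds count noise. Kdm5d was at 2.15 and 1.11 CPM in tumors 1 and 2 and at 9.59 to 16.5 CPM in the control livers. The covariate therefore also takes in part of a difference between the groups. Why it left so few calls was not tested. Scaling by total counts alone left 59 calls, of which 52 were higher and 7 lower. A correction of each library for transcript length and GC content gave 404 calls, 175 higher and 229 lower. DESeq2 called 1518 genes, which included all 336, and edgeR on the 8 libraries alone called 759 of 13443 genes (5.65%), which included 327 of the 336. Among the 13882 genes of the main test, DESeq2 called 818 higher and 684 lower. At an unadjusted p under 0.05, 1784 of them were higher and 1545 lower. Counts for a list that are near these proportions say nothing of the list.

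The largest rises were in genes that the control livers barely expressed. Adcy1, an adenylyl cyclase best known from brain, was at 0.742, 0.492, 1.02 and 0.22 CPM in the control livers and at 23.1, 28.2, 2.01 and 15.4 CPM in tumors 1 to 4, so that it rose by 4.75 on the log2 scale (standard error 0.792, adjusted p = 0.0292). Tumor 3 was far below the other tumors, yet above every control liver. Kif5c, a kinesin motor of microtubule transport, was at 0.369 to 1.63 CPM in the control livers and at 26.4, 19.5, 10.8 and 15.8 CPM in the tumors (log2 fold change 4.32, adjusted p = 0.0493). Pls1, an actin-bundling protein of microvilli, was at 0.861 to 2.22 CPM in the control livers and at 14.4, 14.9, 15.1 and 14.9 CPM in the tumors, with an SD of only 0.287 CPM over the tumors (log2 fold change 3.35, adjusted p = 0.0392). Cdhr2, a cadherin of the microvillus tip, rose by 3.37 on the log2 scale. No gene had a lower adjusted p than the phosphate transporter gene Slc34a2, at 0.0204. The phosphodiesterase gene Pde6c, the receptor gene Tlr1 and the dehydrogenase gene Dhrs9 completed the genes with the largest rises, with log2 fold changes of 3.84, 3.45 and 3.31.

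Fetal liver genes and markers of liver tumors held more genes that rose than any other list but that of the mitotic genes. Of 32 tested, 6 rose (18.8%, against 1.41% of all genes) and 0 fell by edgeR's test, 1 had an unadjusted p under 0.05 and was lower, and DESeq2 called 10 higher and 0 lower. The median log2 fold change of the list was 1.16. This list and those below were written with earlier results of these data known. The shares of their members that were called are therefore descriptions and not a test. Afp, the fetal counterpart of albumin and a serum marker of liver cancer, was at 2.37 to 4.61 CPM in the control livers and at 29.7, 29.7, 5.91 and 104 CPM in tumors 1 to 4 (log2 fold change 3.68, adjusted p = 0.0392). The tumors thus spanned an order of magnitude, with tumor 4 highest and tumor 3 just above the control livers. Prom1, which encodes the progenitor surface protein CD133, was at 1.97 to 3.56 CPM in the control livers and at 63.5, 28.5, 10.5 and 50.4 CPM in the tumors (log2 fold change 3.85, adjusted p = 0.0292). The phospholipid-binding annexins Anxa5 and Anxa2 rose to 193, 100, 172 and 187 CPM and to 114, 99.5, 47.3 and 178 CPM, from 26.4 ± 6.38 and 26.1 ± 3.74 CPM in the control livers (log2 fold changes 2.62 and 2.07). The tetraspanin gene Tspan8 and the desaturase gene Scd2, the isoform of fetal liver, were the remaining called members, with log2 fold changes of 2.47 and 2.63. Scd2 ranged from 94.6 CPM in tumor 3 to 771 CPM in tumor 4, and from 38.5 to 64.7 CPM in the control livers.

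Not all fetal genes were of this pattern. Igf2, the fetal growth factor, did not pass the test (adjusted p = 0.24). It was at 0.742 and 0.678 CPM in control livers 1 and 3, at 35.2 and 57.9 CPM in control livers 2 and 4, and at 0.843, 5.85, 3.25 and 0.413 CPM in the tumors, so that the 2 highest values of all were those of wild-type livers. Gpc3, a surface proteoglycan and marker of hepatocellular carcinoma, was at 16.9 CPM in tumor 3 and at 3.88 CPM or less in the other 7 libraries. Igf2 and Gpc3 were singled out after their values were seen.

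**Figure D2:**
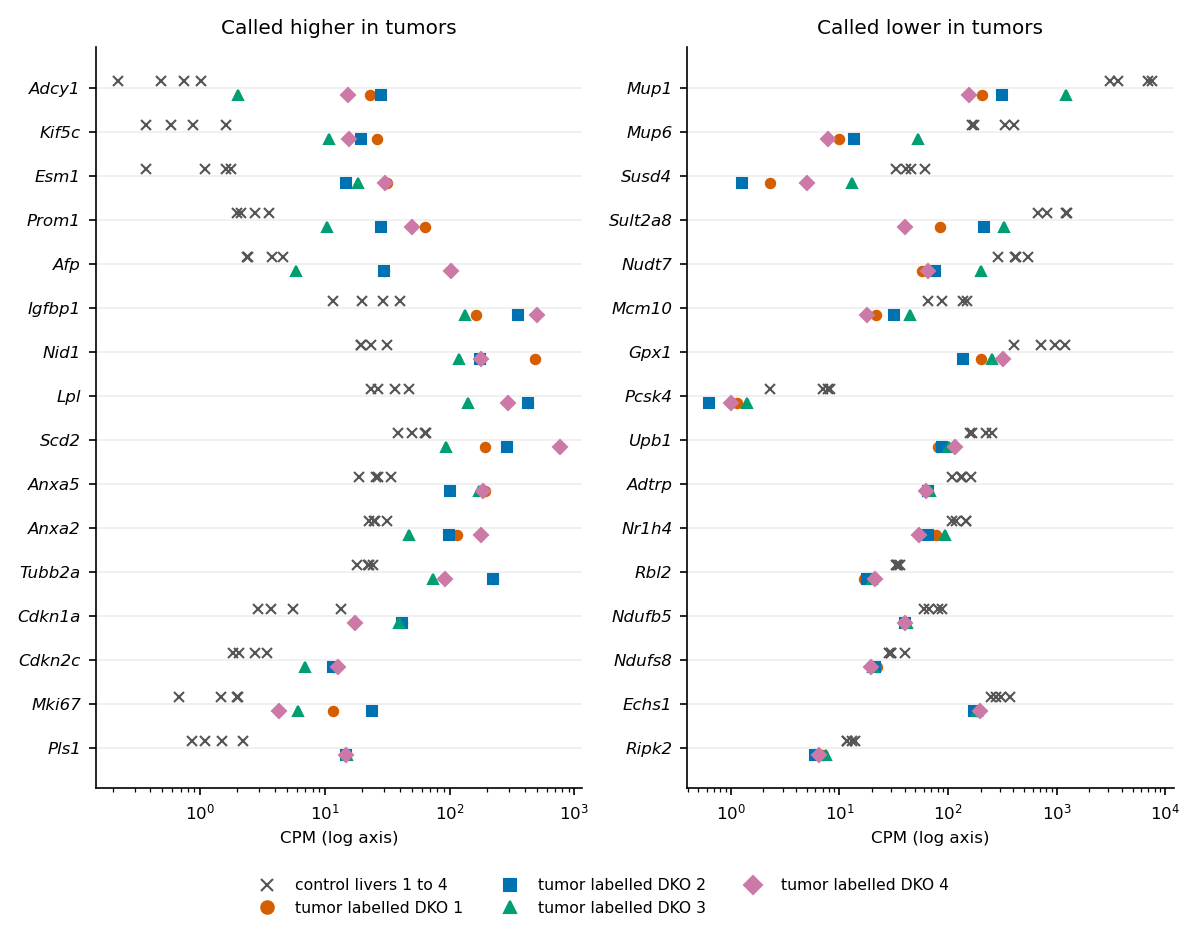
CPM (log axis) in each library for 16 genes called higher and 16 called lower in tumors labelled DKO. Crosses are the control livers, and each tumor has its own symbol. In all 32 genes the tumors lie on 1 side of the control livers, and tumor 3 (triangles) is the tumor nearest to the control livers in Adcy1, Afp, Mup1 and Nudt7.

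Most genes of G2 and mitosis had higher means in the tumors, and tumor 4 was nearest to the control livers. Of 43 tested, 8 rose (18.6%, against 1.41% of all genes) and 0 fell by edgeR's test, 36 had an unadjusted p under 0.05 and were higher, 0 had one and were lower, and DESeq2 called 31 higher and 0 lower. The mean was higher in the tumors for 42 of the 43, and in 29 of them all 4 tumors lay above all 4 control livers, against 8.87% of all genes. In tumors 1 to 4, 43, 42, 38 and 29 of the genes lay above every control liver, and 0, 0, 0 and 2 lay below. The median log2 fold change was 1.73. Mki67, which encodes the proliferation marker Ki-67, was at 2.00, 1.48, 0.678 and 1.98 CPM in the control livers and at 11.7, 23.8, 6.09 and 4.30 CPM in tumors 1 to 4 (log2 fold change 2.89, adjusted p = 0.0425). Prc1, a microtubule crosslinker of the anaphase spindle, was at 1.23 to 1.93 CPM in the control livers and at 8.28, 13.6, 5.74 and 4.66 CPM in the tumors (log2 fold change 2.25, adjusted p = 0.0424). The order of the tumors was the same in both genes, with tumor 2 highest and tumor 4 lowest. Incenp, of the chromosomal passenger complex, Nuf2, of the kinetochore, Bub1b, of the spindle checkpoint, and Kif2c, a kinesin that depolymerizes microtubules, rose by 1.58, 2.55, 1.91 and 2.02 on the log2 scale. Plk1, a mitotic kinase, and Hmmr, a spindle protein, completed the 8. Levels stayed low, and of the 8 genes Mki67 and Prc1 alone passed 10 CPM in a tumor. Top2a and Cdk1 did not pass (adjusted p = 0.0752 and 0.112), and Cdk1 in tumor 4 (5.19 CPM) lay within the range of the control livers (2.83 to 7.32 CPM).

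Genes of the G1/S transition, among them most of the established E2F targets, were higher on average but had few calls. Of 49 tested, 0 rose and 1 fell by edgeR's test, 12 had an unadjusted p under 0.05 and were higher, and DESeq2 called 4 higher and 1 lower. Of all 13882 genes, 1784 were higher at such a p, and DESeq2 called 818 higher, so its 4 calls were near the share of all genes. The mean was higher in the tumors for 43 of the 49 and the median log2 fold change was 0.69. The values differed among the tumors. Tumor 2 lay above every control liver in 44 of the 49 genes, tumors 1 and 3 in 19 and 23, and tumor 4 in 3, where 28.1%, 29.8%, 26.2% and 28.3% of all genes tested lay above every control liver in tumors 1, 2, 3 and 4. The member that fell was Mcm10, a replication initiation factor. It was at 87.5, 138, 149 and 65.7 CPM in the control livers and at 21.5, 31.5, 44.7 and 18.1 CPM in the tumors (log2 fold change -1.93, standard error 0.349, adjusted p = 0.0352). Its level in the control livers was far above that of the 8 mitotic genes there.

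The promoters of these genes were searched for the letters of both elements, since the groups moved differently. The windows were RefSeq's, 250 bases before to 50 after a gene's start (GRCm38.p6), for 10424 of the genes tested, and both strands were searched. TTTGAA was in 26 of 34 promoters of G2/M genes (76.5%), in 8 of 40 of G1/S genes (20%) and in 14.8% of all. It was in 32 of 140 promoters of the genes that rose (22.9%) and in 11 of 101 of those that fell (10.9%). The E2F letters TTTCCCGC or TTTGGCGC were in 15 of 40 promoters of G1/S genes (37.5%), in 0 of 34 of G2/M genes and in 3.33% of all. They were in 6 of 140 promoters of the genes that rose (4.29%) and in 3 of 101 of those that fell (2.97%). CCAAT, the box of NF-Y, was in 27 of 34 promoters of G2/M genes, 26 of 40 of G1/S genes and 42.9% of all. No word searched contains another, and a match is a description and not a bound site. The mitotic genes that rose and hold TTTGAA or its reverse complement are shown in 30 bases at most around it, in capitals, in the direction of the gene:
Mki67, chr7:135716478-135716507, minus strand: ttagcgccagaaTTTGAAccgccgttttgg
Mki67, nearer to the start, chr7:135716460-135716489, minus strand: ccgccgttttggTTTGAAtcgggcgggctg
Prc1, chr7:80294434-80294463, plus strand: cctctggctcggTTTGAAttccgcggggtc
Kif2c, chr4:117178858-117178887, minus strand: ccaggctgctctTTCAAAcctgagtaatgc
Plk1, chr7:122159453-122159482, plus strand: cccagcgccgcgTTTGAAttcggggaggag
Hmmr, chr11:40733412-40733441, minus strand: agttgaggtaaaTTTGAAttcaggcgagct
Bub1b, chr2:118598239-118598260, plus strand: agagacgttaaaTTTGAAactt
In Plk1, Bub1b and Hmmr the match begins 30, 40 and 8 bases after the start, and in Kif2c it begins 103 bases before it. The genes with E2F letters among those that rose were not the cell cycle genes. They were Chka, a choline kinase, Cgn, a tight junction protein, Tgif1, a transcriptional repressor, and Card10, Ggta1 and Slc35c1. The stretches of Chka and Cgn are shown with the reverse complement of the E2F letters in capitals:
Chka, chr19:3851722-3851751, plus strand: gcggttgtgatGCGCCAAAgcgtccaatca
Cgn, chr3:94786570-94786599, minus strand: ctccgccccttGCGGGAAActgaccaatag

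Of 23 G1 cyclins, kinases and CDK inhibitors tested, 2 rose (8.7%, against 1.41% of all genes) and 1 fell (4.35%, against 1.01%), with a median log2 fold change of 0.23. Both genes that rose encode inhibitors. Cdkn2c, which encodes the CDK4/6 inhibitor p18, was at 1.83 to 3.44 CPM in the control livers and at 12, 11.7, 6.98 and 12.9 CPM in the tumors (log2 fold change 2.13, adjusted p = 0.0376). Cdkn1a, which encodes the p53-induced inhibitor p21, was at 5.56, 3.69, 2.91 and 13.5 CPM in the control livers and at 41.6, 41.7, 39.4 and 17.5 CPM in tumors 1 to 4 (log2 fold change 2.43, adjusted p = 0.0389). Tumors 1 to 3 were nearly level, and tumor 4 was close to control liver 4. Rbl2, which encodes the pocket protein p130, was at 34.4 ± 1.18 CPM in the control livers and at 16.9, 18.0, 19.8 and 21.2 CPM in the tumors (log2 fold change -0.86, adjusted p = 0.046). Ccnd1 did not pass (adjusted p = 0.71), at 73.2, 153, 154 and 155 CPM in the tumors and 48.1 to 159 CPM in the control livers. Of 28 p53 target genes, 2 rose (7.14%, against 1.41%) and 1 fell (3.57%, against 1.01%), the latter a single gene. Beside Cdkn1a these were Btg2, an antiproliferative gene that rose from 8.79 ± 3.05 to 60.6 ± 26.1 CPM, and Dcxr, a xylulose reductase that fell from 38.1 ± 13.5 to 15.1 ± 2.88 CPM. Of 25 genes of the unfolded protein response, the stress transcription factor genes Atf3 (log2 fold change 2.85) and Ddit3 (1.51) rose (8%, against 1.41% of all genes) and 0 fell by edgeR's test, as 0 fell by DESeq2 and 0 were lower at an unadjusted p under 0.05.

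A few genes of the cytoskeleton and of the cell's attachment to matrix also rose. Of 15 tubulins, 3 rose (20%, against 1.41% of all genes), with a median log2 fold change of 0.95 for the list. Tubb2a was at 18.1 to 24.2 CPM in the control livers and at 221, 223, 73.3 and 91.9 CPM in the tumors (log2 fold change 2.81, adjusted p = 0.0215). Its neighbour Tubb2b, a near copy with which reads may have been shared, was at 4.88 to 6.23 CPM and at 45.2, 36.9, 15.5 and 19.2 CPM, in the same order of the tumors but for tumors 1 and 2. Tubb3 rose too, at 1.38 CPM or less in every library. Of 29 genes of actin filaments and adhesion, 4 rose (13.8%, against 1.41% of all genes): the non-muscle myosin gene Myh10, the tropomyosin genes Tpm4 and Tpm1 and the actin gene Actg1, with log2 fold changes of 0.98, 0.90, 0.84 and 0.83. Of 45 laminins, collagens and integrins, 3 rose (6.67%, against 1.41%): the laminin chains Lamc1 and Lama5 and the laminin receptor Itga6, with log2 fold changes of 0.97, 1.90 and 1.37. In the latter list 14 of the 45 had a lower mean in the tumors, a smaller share than the 6720 of all 13882 genes. In tumor 2, 12 of the 45 lay below every control liver, near the 26.6% of all genes there. Nid1, which encodes nidogen, the linker of laminin and collagen IV in basement membranes, was on no list and rose to 483, 175, 120 and 178 CPM from 23.6 ± 5.76 CPM in the control livers (log2 fold change 3.34, adjusted p = 0.0376). In none of these lists did a gene fall by edgeR's test or by DESeq2, or have an unadjusted p under 0.05 and a lower mean.

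Among the genes with large changes were Lpl and Igfbp1. Lpl, lipoprotein lipase, which adult hepatocytes hardly make, was at 47.1, 23.5, 36.3 and 26.5 CPM in the control livers and at 422, 422, 141 and 294 CPM in the tumors (log2 fold change 3.26, standard error 0.545, adjusted p = 0.0292). Cd36, a fatty acid translocase, was at 16.7 to 34.3 CPM and at 144, 49.6, 108 and 247 CPM (log2 fold change 2.40, adjusted p = 0.0488). Mfsd2a, a transporter of lysophospholipids, went the other way, from 31.0 to 76.3 CPM in the control livers to 3.99, 4.83, 18.2 and 1.42 CPM in the tumors (log2 fold change -2.96, adjusted p = 0.0495). Lpl is also a marker of adipocytes, of which it was the 1 called member of 5 tested (20%, against 1.41% of all genes). The summed level of that list was 32.8 to 60.4 CPM in the control livers and 162 to 446 CPM in the tumors, most of it Lpl itself in every library, so that it says little of the other markers. Igfbp1, an insulin-repressed hepatic binding protein of IGFs, was at 20.02, 40.4, 11.6 and 29.4 CPM in the control livers and at 164, 353, 133 and 505 CPM in the tumors (log2 fold change 3.51, adjusted p = 0.0425). Cd36 and Mfsd2a were chosen after their values were seen.

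A few genes of the vessel wall rose. Esm1, a secreted proteoglycan of endothelial tip cells, was at 1.78, 0.369, 1.63 and 1.10 CPM in the control livers and at 31.4, 14.9, 18.6 and 30.2 CPM in the tumors (log2 fold change 4.22, standard error 0.660, adjusted p = 0.0292). Of 24 endothelial and sinusoidal markers, 2 rose (8.33%, against 1.41% of all genes), Robo4 (log2 fold change 1.20) and Emcn (2.07), and 0 fell by edgeR's test, by DESeq2 or at an unadjusted p under 0.05. The median of the list was 0.33, and its summed level was 392 to 605 CPM in the control livers and 414 to 721 CPM in the tumors, so that the groups overlapped. In tumors 1 to 4 the list's median was 0.04, 0.27, 0.88 and -0.23. In tumor 3, 19 of the genes lay above every control liver (26.2% of all genes did), and in tumor 4, 10 lay below (25.3% of all genes did). Further vessel genes among the called, picked out after their values were seen, were Angpt2 (log2 fold change 2.74), Mcam (2.13), Notch4 (1.86), Dll4 (1.56), Efnb2 (1.53) and Sox18 (1.36). Angpt2, which destabilizes vessels, was at 0.732 to 1.08 CPM in the control livers and at 2.22, 2.85, 5.26 and 12.6 CPM in the tumors. In bulk RNA, more cells of a type and more RNA per cell cannot be told apart.

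The most abundant genes to fall were the major urinary proteins, the pheromone-binding proteins that male mouse liver secretes under growth hormone. Of 20 Mup genes tested, 17 fell, with log2 fold changes from -3.68 to -2.89, and Mup20, Mup3 and Mup21 did not pass. The genes are near-identical copies in a cluster on chromosome 4, so reads may have been shared among them, and the 17 calls are not independent of one another. Their summed level was 56837, 107075, 94956 and 46249 CPM in control livers 1 to 4 and 4216, 5647, 20093 and 2243 CPM in tumors 1 to 4, means of 76279 ± 29309 and 8050 ± 8149 CPM. The ratio of the means was 9.48, and tumor 3 alone accounted for the largest part of the RNA left in the tumors. Of the genes that fell, 123 were not of this family.

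Several Mup genes are on the list of genes with higher levels in male than in female liver. Of 27 genes of that list tested, 6 fell (22.2%, against 1.01% of all genes) and 0 rose by edgeR's test, by DESeq2 or at an unadjusted p under 0.05. At an unadjusted p under 0.05, 14 of the 27 were lower, and DESeq2 called 13 lower, against 1545 and 684 of all 13882 genes. The list's median log2 fold change was -1.43, but 4 of the 6 that fell were Mup genes (Mup1, Mup7, Mup11 and Mup12). The others were Susd4, a complement regulator, at 33.5 to 62.0 CPM in the control livers and 2.30, 1.27, 13.2 and 5.07 CPM in the tumors (log2 fold change -3.04, adjusted p = 0.0488), and Nudt7, a peroxisomal coenzyme A hydrolase, at 289 to 547 CPM and 57.6, 76.3, 203 and 65.9 CPM (log2 fold change -2.06, adjusted p = 0.0488). Hsd3b5, Elovl3 and Cyp2d9, of the same list, did not pass (adjusted p = 0.0871, 0.0806 and 0.142), although in each of them all 4 tumors lay below all 4 control livers. Sult2a8, a bile acid sulfotransferase, fell from 990 ± 288 to 167 ± 131 CPM (log2 fold change -2.57, adjusted p = 0.0478). Of 29 genes with higher levels in female liver, 1 rose (3.45%, against 1.41% of all genes), Prom1, and 0 fell by either tool or at an unadjusted p under 0.05. At such a p, 12 of the 29 were higher, and DESeq2 called 6 higher, against 1784 and 818 of all 13882 genes. The median of that list was 1.07, and Cyp2a4, a steroid hydroxylase, was at 154 to 391 CPM in the control livers and at 1348, 856, 995 and 1499 CPM in the tumors (adjusted p = 0.125). In the 4 tumors the median of the male-biased genes was -2.67, -1.49, -0.53 and -2.63 relative to the mean of the control livers on the log2 scale, with tumor 3 nearest to 0.

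Most genes of the mitochondrial respiratory chain had lower means in the tumors. Complex I, which passes electrons from NADH to ubiquinone, had 36 subunits tested, of which 5 fell (13.9%, against 1.01% of all genes) and 0 rose by edgeR's test, by DESeq2 or at an unadjusted p under 0.05. All 36 had a lower mean in the tumors, and in 18 of them all 4 tumors lay below all 4 control livers, against 7.3% of all genes. The log2 fold changes ranged from -1.31 to -0.06. Ndufb5 was at 60.2, 88.9, 81.4 and 66.8 CPM in the control livers and at 40.2, 39.9, 42.2 and 40.2 CPM in the tumors (log2 fold change -0.87, standard error 0.165, adjusted p = 0.0376). Ndufa12, Ndufs7, Ndufs8 and Ndufb7 fell by 0.96, 1.06, 0.63 and 1.19 on the log2 scale, and the median over the list was -0.60. Of 22 subunits of complexes II to IV and cytochrome c, Cox7c fell (4.55%, against 1.01%), with a log2 fold change of -1.02, and the median was -0.53. ATP synthase had 0 calls among 15 subunits by edgeR's test, 8 with an unadjusted p under 0.05 and lower, and 4 called lower by DESeq2, with a median of -0.41. Of 41 mitochondrial ribosomal proteins, Mrpl18 and Mrpl14 fell (4.88%, against 1.01%), with a median of -0.40. Over these 4 lists 112 of 114 genes had a lower mean in the tumors and 8 fell (7.02%, against 1.01% of all genes).

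Several of these genes are short, and short genes as a whole were lower. In the eighth of the genes with the shortest exon length (up to 1485 bases) the median log2 fold change was -0.22, and in the longest eighth it was 0.16. The shortest eighth was at -0.21, -0.25, -0.26 and -0.16 in tumors 1 to 4 and at -0.11, 0.31, 0.04 and -0.19 in control livers 1 to 4, relative to the mean of the control livers. The median exon length was 1322 bases for complex I. After a correction of each library for transcript length and GC content, the median of complex I was -0.45, and 6 of its 35 subunits with both values fell. The medians of the mitochondrial and the cytosolic ribosomal proteins were then -0.25 and -0.16, against -0.40 and -0.30 without the correction, and that of all genes -0.05. The part of RNA length in the group difference was not tested further. Of 68 cytosolic ribosomal proteins 2 fell (2.94%, against 1.01% of all genes), Rps18 and Fau (log2 fold changes -0.97 and -0.86). The mean was lower in the tumors for 63 of the 68. At an unadjusted p under 0.05, 24 were lower and 0 higher, and DESeq2 called 6 lower and 0 higher. The list of NRF2 antioxidant genes had 0 calls among 29 by edgeR's test, 3 with an unadjusted p under 0.05 and higher and 1 lower, and DESeq2 called 1 higher and 1 lower, with a median of 0.04. Single genes that fell and were chosen after their values were seen, none of them on that list, were Gpx1, a glutathione peroxidase, from 819 ± 335 to 229 ± 78.2 CPM (log2 fold change -1.84), Sod2, the mitochondrial superoxide dismutase (-0.66), the iron-sulfur cluster factors Nfu1 (-0.87) and Bola3 (-1.04), Chchd10 (-1.18) and the import chaperone Timm9 (-1.05).

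The metabolic lists of the hepatocyte held few calls by edgeR's test, but several leaned to lower levels. Of all 13882 genes, 1545 were lower at an unadjusted p under 0.05, DESeq2 called 684 lower, and 6720 had a lower mean. Of 26 genes of fatty acid oxidation and ketogenesis, the hydratase gene Echs1 fell (3.85%, against 1.01% of all genes), from 301 ± 52.4 to 184 ± 11 CPM (log2 fold change -0.71, adjusted p = 0.048), and the list's median was -0.49. The mean was lower in the tumors for 25 of the 26. At an unadjusted p under 0.05, 12 were lower and 0 higher, and DESeq2 called 8 lower and 0 higher. Genes of amino acid catabolism and the urea cycle had 0 calls among 38 by edgeR's test, 11 with an unadjusted p under 0.05 and lower, and 4 called lower by DESeq2, with a median of -0.57. Upb1, the last enzyme of uracil breakdown, was among the lowest adjusted p of the genes that fell, at 166, 252, 223 and 159 CPM in the control livers and 81.3, 87.9, 102 and 115 CPM in the tumors (log2 fold change -1.05, adjusted p = 0.0292). Adtrp, a hydrolase of hydroxylated fatty acid esters, had the same adjusted p, at 134 ± 21.9 and 65.0 ± 2.27 CPM. Nr1h4, which encodes the bile acid receptor FXR, was the called member both of the bile acid list (3.33% of 30 tested) and of the hepatocyte transcription factors (4.17% of 24 tested), at 109, 146, 148 and 118 CPM in the control livers and 76.8, 65.0, 93.1 and 53.9 CPM in the tumors (log2 fold change -0.85, adjusted p = 0.0425). Apoc4 was the called member of 17 apolipoproteins (5.88%), with a log2 fold change of -0.91. Ripk2, Haus4, Smim4 and Pcsk4 also fell at an adjusted p of 0.0292, with log2 fold changes of -0.89, -0.90, -1.47 and -2.58. Genes of plasma proteins had 0 calls among 54 by edgeR's test, 8 with an unadjusted p under 0.05 and lower, and 6 called lower by DESeq2. The P450 families had 0 calls among 49, 2 with an unadjusted p under 0.05 and higher and 15 lower, and DESeq2 called 1 higher and 6 lower. Of 47 phase II conjugation enzymes, Sult2a8 alone fell (2.13%, against 1.01% of all genes). At an unadjusted p under 0.05, 3 of them were higher and 18 lower, and DESeq2 called 1 higher and 13 lower.

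**Figure D3:**
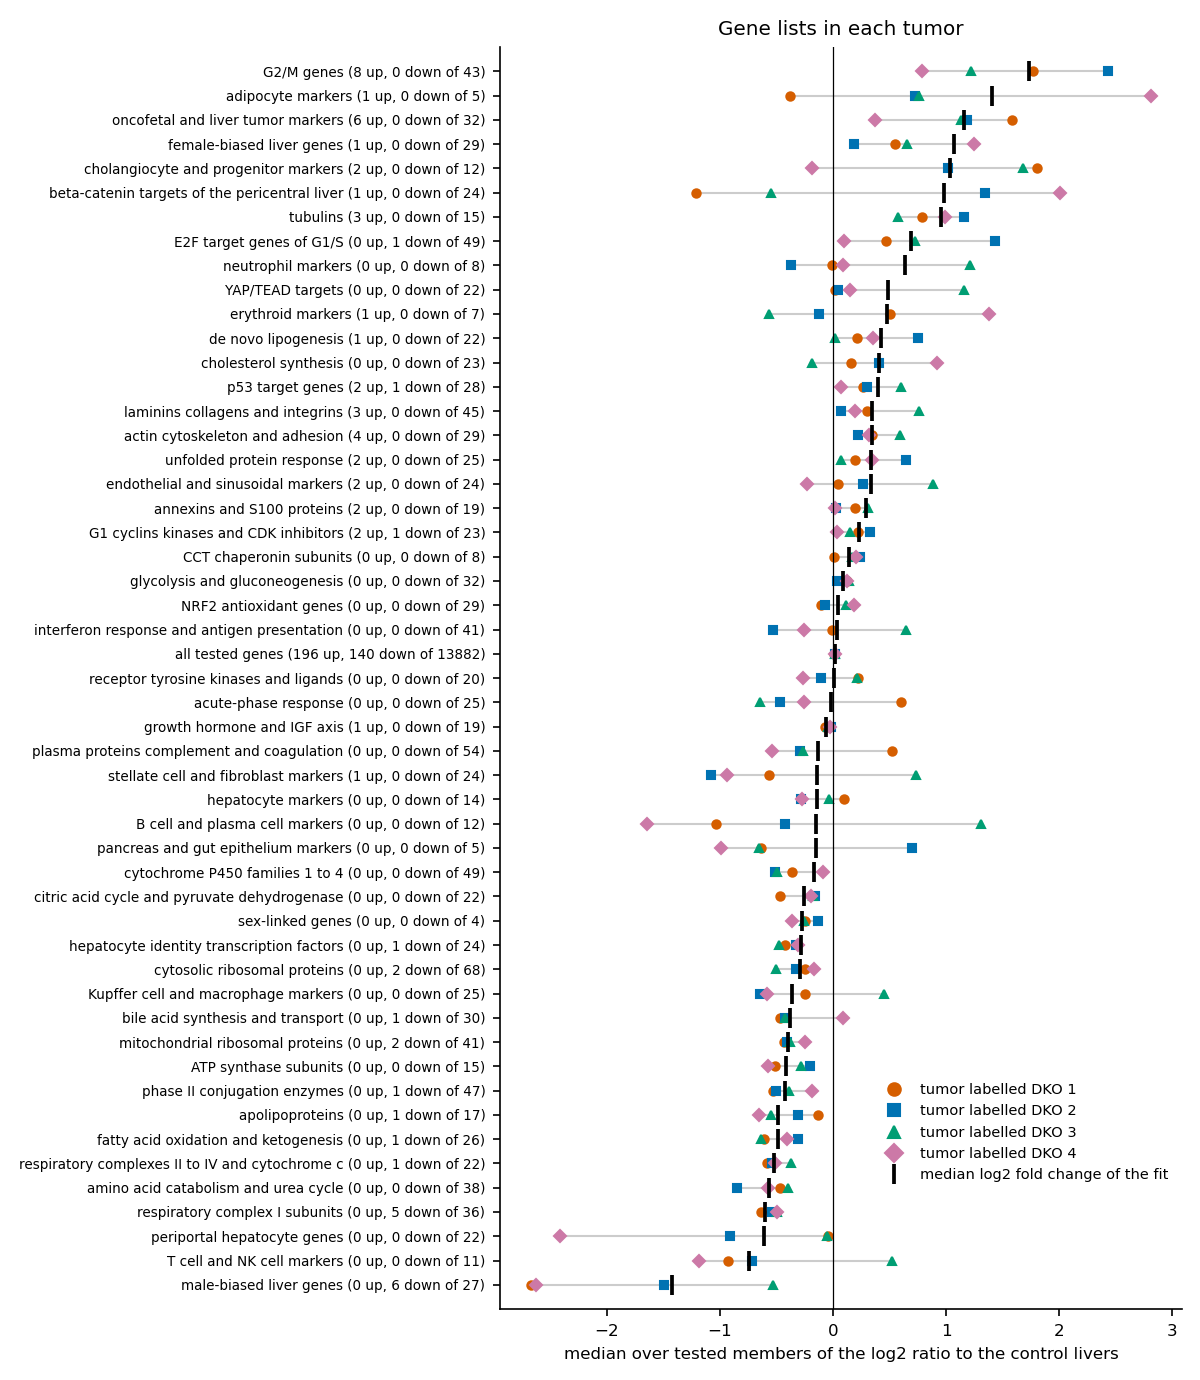
For each of 50 gene lists and for all genes tested, the median over tested members of the log2 ratio of each tumor to the mean of the control livers (symbols) and the median log2 fold change of the fit (black bars), with the numbers called higher and lower of those tested. The 4 tumors lie close together for complex I (-0.64 to -0.50) and far apart for the beta-catenin targets (-1.22 to 2.01) and the periportal genes (-2.42 to -0.05).

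The tissue labels were checked against markers of liver cell types. Hepatocyte markers, 14 of 14 tested, summed to 114123 to 172287 CPM in the control livers and 155300 to 359860 CPM in the tumors, and 0 were called by edgeR's test, 2 being called lower by DESeq2 and 3 being lower at an unadjusted p under 0.05. Most of the sum was albumin in every library, 7 of the 14 had a lower mean in the tumors, and the list's median was -0.14. Markers of cholangiocytes and progenitors summed to 55.6 to 82.8 CPM in the control livers and 113 to 226 CPM in the tumors. Of 12 tested, 2 rose (16.7%, against 1.41% of all genes), Prom1 and Tspan8, which are also on the tumor list. In tumors 1 to 4, 9, 6, 11 and 2 of the 12 lay above every control liver, and 2, 0, 0 and 5 lay below. The list's median was -0.19 in tumor 4 and positive in the other tumors. Prom1 and Tspan8 were at 50.4 and 26.1 CPM in tumor 4, so the sum says little of the other members there. Stellate cell and fibroblast markers had 1 call of 24 (4.17%), Sparc (log2 fold change 1.08), and summed to 530 to 888 CPM and to 448 to 1208 CPM. Kupffer cell and macrophage markers had 0 calls of 25 by edgeR's test and 1 called higher by DESeq2, with 1 gene of each direction at an unadjusted p under 0.05. T and NK cell, B and plasma cell and neutrophil markers had 0 calls of 11, 12 and 8 by edgeR's test and by DESeq2, with 2, 0 and 1 genes at an unadjusted p under 0.05. Within the tumors, tumor 3 stood highest in the stellate, B cell and T cell markers, with list medians of 0.74, 1.30 and 0.52 against -0.57 or lower, -0.43 or lower and -0.72 or lower in the others. Tumor 4 had 5.84 CPM of the Kupffer cell marker Clec4f, where the other tumors had 40.5 to 168 CPM and the control livers 68.6 to 193 CPM. The part of the cell makeup in the differences between the groups was not tested.

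The tumors differed from one another in genes of liver zonation. Targets of beta-catenin mark the hepatocytes around the central vein. In tumors 2 and 4, 19 and 21 of 24 such genes lay above every control liver, and in tumors 1 and 3, 19 and 13 lay below every control liver, where 26.0%, 26.6%, 24.0% and 25.3% of all genes tested lay below in tumors 1, 2, 3 and 4. Glul, glutamine synthetase, was at 653, 781, 607 and 463 CPM in the control livers and at 223, 3138, 473 and 7472 CPM in tumors 1 to 4. Axin2, a feedback inhibitor of the pathway, was at 4.47 to 9.59 CPM in the control livers and at 2.99, 45.8, 5.97 and 41.3 CPM in the tumors, and the stem cell receptor gene Lgr5 at 2.27 to 6.27 CPM and at 0.997, 20.7, 2.19 and 22.7 CPM. The ammonium transporter gene Rhbg followed the same order, at 6.75, 81.7, 6.80 and 143 CPM in the tumors. None of these 4 passed the test (adjusted p = 0.32, 0.36, 0.396 and 0.236), with the tumors on both sides of the control livers or level with them. Glul, Axin2, Lgr5, Rhbg and Cyp2e1 were chosen after their values were seen. The 1 called member, the amino acid transporter gene Slc1a4, did not follow the pattern, at 43.1, 40.4, 11.1 and 52.3 CPM in the tumors against 6.27 to 7.18 CPM in the control livers (log2 fold change 2.41, adjusted p = 0.0425). Genes of the portal side had medians of -0.05, -0.91, -0.06 and -2.42 in tumors 1 to 4. Of these Pck1, of gluconeogenesis, was at 567, 142, 1203 and 62.8 CPM in the tumors and 795 to 2024 CPM in the control livers. Among pericentral genes Cyp2e1 was at 547, 5167, 2604 and 10840 CPM in the tumors and 6877 to 11821 CPM in the control livers, so that tumor 1 had the least.

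**Figure D4:**
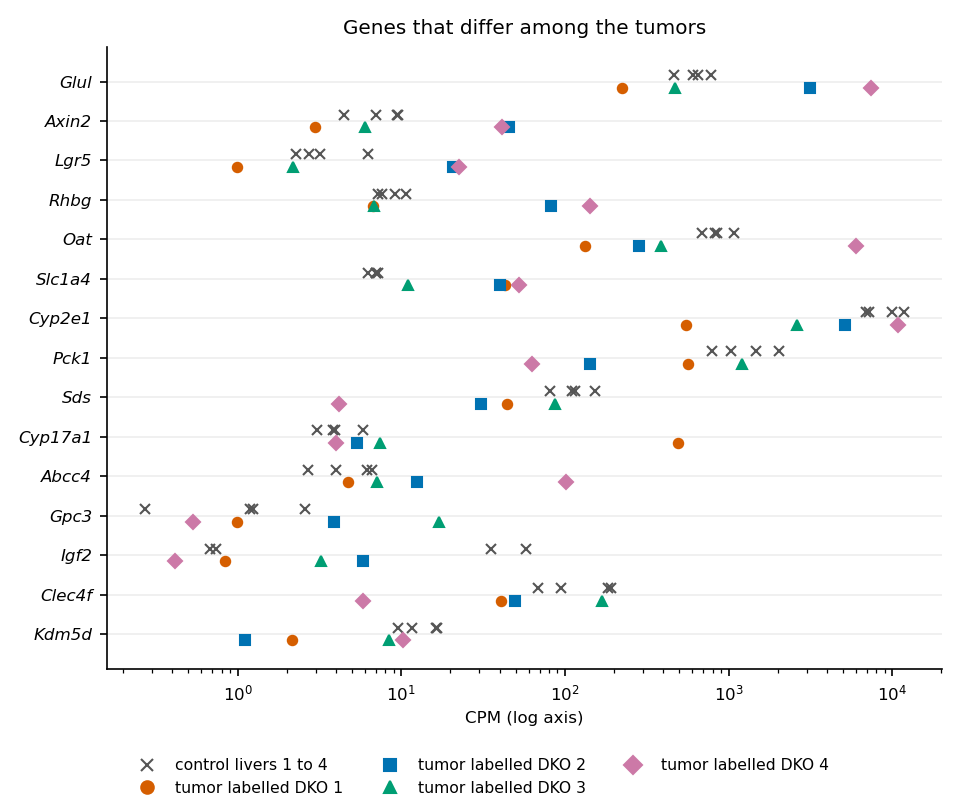
CPM (log axis) in each library for 15 genes that differ among the tumors labelled DKO. Crosses are the control livers. Tumors 2 and 4 (squares and diamonds) lie above every control liver in Glul, Axin2, Lgr5 and Rhbg while tumors 1 and 3 do not, Cyp17a1 is high in tumor 1 alone, and Igf2 is highest in 2 control livers.

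Single tumors had genes of their own. Cyp17a1, an enzyme of androgen synthesis, was at 489 CPM in tumor 1 and at 7.39 CPM or less in the other 7 libraries, 66.2 times the next highest value. Among genes at 20 CPM or more in a tumor and at least 8 times higher there than in every other library, tumor 1 had 2, tumor 2 had 0, tumor 3 had 2, both immunoglobulin segments, and tumor 4 had 6. Those of tumor 4 included the sulfotransferase genes Sult3a1 (480 CPM, next highest 9.05 CPM) and Sult3a2 (145 CPM, next highest 2.00 CPM), the reductase gene Akr1b7 (116 CPM, next highest 9.51 CPM) and the efflux transporter gene Abcc4 (102 CPM, next highest 12.4 CPM).

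Median levels by chromosome were also compared in each library, over 9846 genes of 20 chromosomes. In the control livers the medians lay between -0.10 and 0.13 on the log2 scale relative to their mean. Tumor 4 had a median of -0.28 over the 503 genes of chromosome 10, with 29.2% of them above the mean of the control livers, and of 0.27 over the 314 genes of chromosome 16, with 73.6% of them above. Tumor 1 had a median of -0.24 on chromosome 8 and of 0.36 on chromosome X, where 81.4% of 269 genes were above. Tumor 2 had medians of 0.17 on X and -0.1029 on chromosome 17, the latter just under the lowest control median of any chromosome (-0.1026). Tumor 3 had no chromosome outside the range of the control livers taken over all chromosomes. Against the control livers on the same chromosome it was lower on several, such as chromosome 6 (-0.05, control livers 0.003 to 0.03). Of the 336 genes called (2.42% of those tested), 3 were on X and 35 on chromosome 4, which holds the Mup cluster. No share of the genes tested on these chromosomes is given, so they are counts only. E2f7 is on chromosome 10 and E2f8 on chromosome 7, which had a median of 0.04 in tumor 4. No test was made of these medians.

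**Figure D5:**
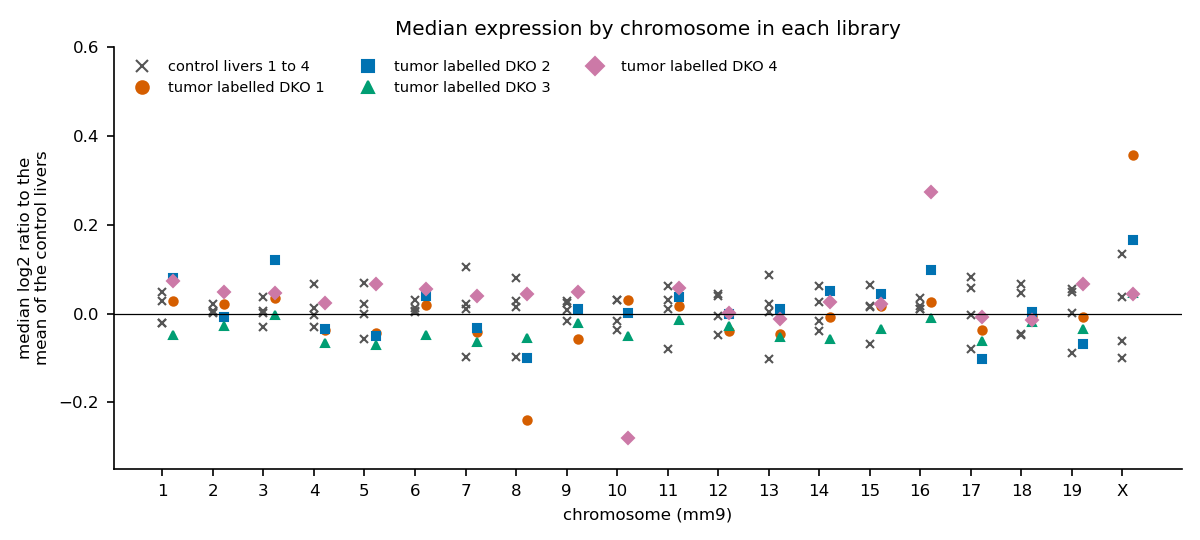
Median log2 ratio to the mean of the control livers over the genes of each chromosome (mm9), in the 4 control livers (crosses) and the 4 tumors labelled DKO (symbols). Chromosomes 10 and 16 stand apart in tumor 4, and chromosomes 8 and X in tumor 1.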

How the data were processed

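Poly(A) RNA of 12 libraries was sequenced on a SOLiD instrument with reads of 40 bases. The authors aligned them to mm9 with BWA, used featureCounts to count reads in each gene, and deposited the raw counts of 26301 Entrez genes with no normalization. How strand and multiply mapped reads were handled, and which versions were used, is not given in the sources used here, so genes that overlap and near-identical copies are uncertain.

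Counts were tested as deposited with edgeR 4.0.16 (R 4.3.3): TMM scaling, filterByExpr by group, a mean for each of the 3 groups over all 12 libraries, and a quasi-likelihood test per gene, adjusted by Benjamini-Hochberg with the study's level of 0.05. DESeq2 1.42.0, which the study used, and limma 3.58.1 (voom with quality weights) were alternatives. The libraries of 9165812 to 16424973 counts bound the precision of genes below about 1 CPM. Groups and replicate numbers came from the labels. Same-numbered libraries come from different mice, and their correlations of -0.174 to 0.0465 show no pairing by number, so the block by number was an alternative only. The labels also hold codes with recurring letters, whose meaning is not given and which entered no fit. Control liver 4 and tumor 3 (j6 and j5) correlated at 0.235, control liver 1 and tumor 2 (b3 and b4) at -0.0245. Control livers 2 and 3 (e1 and e6) were most alike, with a chi-square of counts of 19.9 per degree of freedom against 63.2 to 74.6 for other control pairs. Single-gene SDs are over 4 libraries, of 4 livers per group.

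Symbols were found for 24191 identifiers, with 99.4% of the counts. Positions are of GENCODE vM1 (mm9), promoters of RefSeq (GRCm38.p6). The members and the 50 gene lists were chosen with earlier results of these data known, and no test was made over a list. Genes named were the deleted genes, the 12 largest changes, the 6 lowest adjusted p and the 5 highest levels in each direction among called genes without overlap at 5 CPM or more, and in each list up to 6 called members or, with none, the highest and the lowest. In this way 122 genes were named, of which the text gives those that bear on a group, and 36 were chosen after their values were seen. Some genes that the rule names are not reported here. Predicted genes and pseudogenes (14 called) and 10 called identifiers without a symbol are not named. The other alternatives were DESeq2's size factors, total counts, at least 10 counts in each of the 8 libraries, no filter, the 8 libraries alone, fits without each library in turn, a threshold of 0.1 for the adjusted p, and a covariate of Xist minus the mean of 4 Y-linked genes. edgeR's newer dispersion estimate and a correction for length and GC content (91.0% of the tested genes had both) were added after the data were seen. The procedures were tested on simulated data.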

Additional observations from a re-analysis of the deposited data

Results flagged for a closer look

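In 37 of 312 groups of 4 libraries of a named gene, the highest or the lowest library stood apart from the other 3 by Dixon's test at its 95% critical value, where chance alone flags about 1 in 20. Since many of the genes move together, these are not 37 separate events.

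The largest set was 12 Mup genes in which tumor 3 lay far above the other tumors. It was at 53.2 CPM in Mup6, 108 in Mup5, 957 in Mup13, 989 in Mup8, 1029 in Mup11, 1057 in Mup14, 1091 in Mup18, 1215 in Mup1, 1232 in Mup2, 1325 in Mup12, 1417 in Mup10 and 1419 in Mup15, while the other tumors had at most 376 CPM in any of them. A further pair of genes with higher levels in male liver stood apart in the same tumor, Nudt7 at 203 CPM and Cyp4a12a at 530 CPM, against 76.3 and 86.2 CPM or less in the others.

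Tumor 3 was also apart in Axl (61.5 CPM, others 20.3 to 23.5), Pdgfra (11.8 CPM, others 0.884 to 2.07), Ighm (170 CPM, others 3.42 to 18.5) and Ndufb5 (42.2 CPM, others 39.9 to 40.2), and below the others in Fgf21 (0.769 CPM, others 6.49 to 7.31). Tumor 4 was above the others in Oat (5998 CPM, others 134 to 389), Abcc4 (102 CPM, others 4.75 to 12.4), Tfrc (115 CPM, others 26.2 to 32.1), Notch4 (10.3 CPM, others 3.68 to 4.02) and Mrpl14 (11.4 CPM, others 6.88 to 7.28), and below them in Cdkn1a (17.5 CPM, others 39.4 to 41.7). Tumor 1 was above the others in Cyp17a1 (489 CPM, others 4.01 to 7.39), Nid1 (483 CPM, others 120 to 178), Lcn2 (364 CPM, others 28.9 to 68.9) and Rb1 (11.3 CPM, others 7.99 to 8.38), and below them in Ccnd1 (73.2 CPM, others 153 to 155).

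Among the control livers, number 1 was above the others in Tfrc (14.6 CPM, others 8.47 to 9.37) and Tpm4 (28.3 CPM, others 18.3 to 19.4), number 2 in Ndufs8 (40.1 CPM, others 28.9 to 30.1) and Apoc4 (499.6 CPM, others 313 to 340) but below them in Cct7 (91.0 CPM, others 109 to 112), and number 4 above them in Saa3 (107 CPM, others 7.13 to 21.7) and below them in Eif2s3y (32.0 CPM, others 45.0 to 47.1). No cause was tested for any of these.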

How the results depend on the processing

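The number of genes called (336, with 196 higher and 140 lower) was 1518 (828 and 690) with DESeq2, 1804 (928 and 876) with voom and quality weights, 759 (447 and 312) with the 8 libraries alone, 1460 (809 and 651) at an adjusted p of 0.1, 59 (52 and 7) with total counts only and 6 (6 and 0) with the sex-linked covariate. With the length and GC correction 229 genes were called lower. The fits that left out a library gave 0 to 409 calls, 0 to 242 higher and 0 to 167 lower. The number stayed within 1.5 times with DESeq2's size factors, either filter setting and the newer dispersion estimate. With the replicate number as a block it was 509 (303 and 206), of which 287 were among the 336, but same-numbered libraries do not share a mouse and did not deviate together (correlations of -0.174 to 0.0465, against -0.147 to 0.235 for other pairs), so the samples share only a number. All 336 genes, chosen by their p in these same libraries, kept their direction in each of the 20 settings where they were tested. This does not hold for named genes that were not called. The higher tumor mean of Oat rested on tumor 4 (5998 CPM), while the other tumors (134 to 389 CPM) lay below every control liver (687 to 1080 CPM). Of the checks of named genes, 2206 kept their side of the threshold, 64 passed only under the alternative and 846 no longer passed, and the medians of the lists moved by more than the spread between libraries in 91 checks and stayed within it in 859. The cause of these changes was not tested. Depth limits genes below about 1 CPM, such as E2f7 with 4 to 24 counts per library.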

Other observations

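Several genes and lists did not pass the test but differed among the tumors. Cdh1, the epithelial cadherin, was at 22.5, 15.5, 8.88 and 12.3 CPM in the control livers and at 160, 145, 92.1 and 90.6 CPM in the tumors (log2 fold change 3.04, adjusted p = 0.056), and it passed in the fit of the 8 libraries alone (adjusted p = 0.0037). Nt5e, an ectonucleotidase, was at 4.61 to 8.23 CPM in the control livers and at 10.3, 34.8, 13.8 and 151 CPM in the tumors (adjusted p = 0.0552). The P450 gene Cyp2u1 was at 51.4 to 97.3 CPM in the control livers and at 6.82, 12.6, 29.5 and 3.12 CPM in the tumors (adjusted p = 0.0538).

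Over all genes tested, 28.1%, 29.8%, 26.2% and 28.3% lay above every control liver in tumors 1, 2, 3 and 4, and counts near those shares say nothing of a list. Targets of YAP and TEAD lay above every control liver for 18 of 22 genes in tumor 3, and for 6, 7 and 10 in tumors 1, 2 and 4. Genes of the interferon response and antigen presentation did so for 21 of 41 in tumor 3, and for 6, 4 and 1 in tumors 1, 2 and 4. Genes of cholesterol synthesis did so for 14 of 23 in tumor 4 and for 2, 5 and 0 in tumors 1, 2 and 3. Genes of plasma proteins did so for 28 of 54 in tumor 1 and for 10, 3 and 3 in tumors 2, 3 and 4, and genes of the acute phase for 13 of 25 in tumor 1 and for 1, 1 and 2 in the others. By edgeR's test 0 genes of these 5 lists were called, and DESeq2 called 4 of the YAP and TEAD targets and 2 of the interferon genes higher and 1 interferon gene, 6 of the plasma protein genes and 3 of the acute phase genes lower. At an unadjusted p under 0.05 the lists held 5, 7, 2, 8 and 5 genes in either direction, of 22, 41, 23, 54 and 25 tested. Of all 13882 genes, 3329 had such a p. By direction, the lists held 5, 3, 1, 0 and 1 higher and 0, 4, 1, 8 and 4 lower. Of all genes, 1784 were higher and 1545 lower at such a p, and DESeq2 called 818 higher and 684 lower. The lists were written with earlier results known, so none of these counts is a test. The counts above every control liver are values of single tumors, with no test.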
